A study of Mus musculus with 17 samples.

Results

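Mitochondrial fatty acid oxidation was followed in mouse periprostatic fat, the fat depot around the prostate, through the genes Cpt1a, Cpt1b, Cpt2, Acadm, Acadl, Hadha, Eci1 and Ppara. A gene was taken from a probe set that the array annotation gives exactly 1 gene symbol, and 7 of these 8 genes had such a probe set, 1 each, among 22180 genes measured. Cpt1b, the muscle-type isoform of carnitine palmitoyltransferase 1, shares its probe set with other genes and is given no value. The genes were named for oxidation and ketogenesis, but none of the 7 makes ketone bodies.

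RNA came from 17 male C57BL/6J mice, all 25 weeks old, and each mouse was measured on an array of its own. LFD mice (6) ate a low-fat diet with 10 kcal% fat from 6 weeks of age, freely and to the end. HFD mice (6) ate a high-fat diet with 60 kcal% fat from the same age, also freely. HFD_CR mice (5) ate the high-fat diet freely for 12 weeks and then, for the last 7 weeks, were given each day 70% of what the HFD mice consumed, a calorie restriction of 30%. There was no group in which LFD mice were restricted, and the feeding state at death is not given in the sources used here. Values are log2 signals as the authors deposited them, and they compare mice within a gene, not genes with each other.

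Long-chain fatty acids reach the mitochondrial matrix as carnitine esters. Cpt1a, the liver-type carnitine palmitoyltransferase 1 of the outer membrane, makes the ester and is inhibited by malonyl-CoA, and Cpt2 on the inner membrane turns it back into acyl-CoA. In the matrix, acyl-CoA dehydrogenases such as Acadl (long chains) and Acadm (medium chains) begin each turn of β-oxidation, and Hadha, the alpha subunit of the trifunctional protein, carries out the hydration and the next dehydrogenation of long chains. Eci1 moves the double bond of unsaturated chains to where the spiral can use it. Ppara is the fatty acid-activated nuclear receptor known for switching on these genes in liver. White fat mainly stores fatty acids, whereas brown and beige adipocytes oxidise them for heat.

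Cpt1a, Cpt2, Eci1 and Ppara are the members whose signal changed between HFD and LFD mice, not all in one direction, and for that reason the 250 bases upstream of their annotated starts are given. The sequences are RefSeq's, build GRCm38.p6, 5′ to 3′ on the gene's strand. They are Cpt1a at chr19:3323051-3323300 (plus strand), Cpt2 at chr4:107923590-107923839 (minus strand), Eci1 at chr17:24426433-24426682 (plus strand) and Ppara at chr15:85735526-85735775 (plus strand). Capitals mark every match on either strand to 6 searched motifs: the GC box GGGCGG, the CCAAT box, the nuclear receptor core AGGTCA, the element AGGTCANAGGTCA (2 such cores 1 base apart, the kind that PPAR binds), the estrogen-related receptor element TCAAGGTCA and the E box CACGTG. Both longer elements contain the nuclear receptor core.
Cpt1a: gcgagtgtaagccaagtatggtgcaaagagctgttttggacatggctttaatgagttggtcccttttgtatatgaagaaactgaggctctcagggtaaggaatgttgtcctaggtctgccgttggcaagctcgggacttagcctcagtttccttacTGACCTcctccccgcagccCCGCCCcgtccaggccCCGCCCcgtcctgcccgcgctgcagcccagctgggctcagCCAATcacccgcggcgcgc
Cpt2: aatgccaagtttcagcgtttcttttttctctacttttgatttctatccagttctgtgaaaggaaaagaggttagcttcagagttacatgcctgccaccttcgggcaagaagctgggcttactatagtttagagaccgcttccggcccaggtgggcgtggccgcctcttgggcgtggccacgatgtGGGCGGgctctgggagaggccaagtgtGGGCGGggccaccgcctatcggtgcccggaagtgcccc
Eci1: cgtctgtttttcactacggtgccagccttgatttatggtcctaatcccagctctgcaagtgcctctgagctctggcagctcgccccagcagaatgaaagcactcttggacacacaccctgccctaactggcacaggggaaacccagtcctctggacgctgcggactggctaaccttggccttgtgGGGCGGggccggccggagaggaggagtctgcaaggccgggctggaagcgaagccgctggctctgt
Ppara: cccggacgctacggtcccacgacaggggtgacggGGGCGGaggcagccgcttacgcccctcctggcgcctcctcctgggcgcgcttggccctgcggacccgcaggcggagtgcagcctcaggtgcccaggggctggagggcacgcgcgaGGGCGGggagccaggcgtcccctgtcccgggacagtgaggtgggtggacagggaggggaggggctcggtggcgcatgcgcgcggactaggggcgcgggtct
Each of these 4 windows holds a GC box, and 6 of the 7 members do, Acadm being the exception; 32.7% of 32851 upstream windows of the same length hold one. Cpt1a is the only one of the 7 with CCAAT, which 33.8% of all windows hold. The nuclear receptor core is found in Cpt1a and Acadm, against 14.0% of all windows. The spaced pair of cores (0.0335% of all windows), the estrogen-related receptor element (0.387%) and the E box (6.02%) are in 0 of the 7 windows, which says only that these letters are not there. The GC content was 59.6% for Cpt1a, 56.8% for Cpt2, 61.2% for Eci1 and 76.4% for Ppara, against a median of 52.4% over all windows. A match is a description of letters, and binding was not measured.

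Before the results, some arrays stood apart from their groups by markers of other cells. The mean log2 signal of 18 skeletal muscle genes reached 10.7 and 9.51 for LFD mice 2 and 3, 9.61 for HFD_CR mouse 2, 8.38 for HFD mouse 6 and 8.19 for LFD mouse 5. The remaining 12 mice lay between 7.24 and 7.35. That of 9 genes of thermogenic (brown and beige) adipocytes was 10.0 in LFD mouse 3 and 9.61 in LFD mouse 6, and 7.37 to 8.59 elsewhere. Prostate and accessory gland genes (12) were highest in LFD mouse 3 (7.46) and HFD mouse 3 (6.93), and male germ cell genes (7) in HFD_CR mouse 1 (9.98). Within the gland list Sbp reached 13.86 in LFD mouse 3 and 12.62 in HFD mouse 3. Its genes Pbsn, Tgm4 and those named Svs stayed at 6.64 or lower in every mouse. The adipocyte list averaged 12.6 to 13.0 in all mice and was far above the array medians of 7.03 to 7.15. Counts were repeated without the 4 arrays highest in muscle or gland genes (LFD mice 2 and 3, HFD_CR mouse 2 and HFD mouse 3, leaving HFD mouse 6 and LFD mouse 5 in), without LFD mice 3 and 6, and without each mouse in turn. The larger changes in counts and calls are given beside the results.

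In mice left on the high-fat diet, Cpt1a was higher than on the low-fat diet, while Cpt2, Eci1 and Ppara were lower. Of the 7 members, 1 rose, 3 fell and 3 did not pass the test (Acadm, Acadl and Hadha), with a median difference of -0.06 (log2), beside -0.0032 over all genes. Rising or falling means here an adjusted p under 0.05 from limma, with the Benjamini-Hochberg method applied to all 22180 genes. In this comparison 16.5% of all genes rose and 11.3% fell, so a call alone was common. Among genes above the median level fitted on their own, 29.9% rose and 18.7% fell. Rises made up 59.4% of all calls, but 47.9% with each array centred on its median and 48.0% with quantile normalization applied again; every member kept its sign and its call in this comparison under both.

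Cpt1a, the entry step, had the widest change of the 7 between HFD and LFD mice in log2 units. In LFD mice its lowest, median and highest log2 signals were 10.77, 10.96 and 11.04, and in HFD mice 11.60, 11.68 and 11.75. The 5 HFD_CR mice had 11.58, 11.43, 11.47, 11.42 and 11.34 (mice 1 to 5). No value of one group lay inside the range of another, so every HFD_CR mouse sat between the LFD and the HFD mice. The group means were 10.94 ± 0.09 (SD, n = 6) in LFD, 11.68 ± 0.06 (SD, n = 6) in HFD and 11.45 ± 0.09 (SD, n = 5) in HFD_CR mice.

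Cpt1a rose by 0.74 ± 0.05 (log2 difference ± SE, 1.67-fold) from LFD to HFD, with a limma adjusted p of 1.31e-08, the 46th smallest of the 22180 by p. From HFD to HFD_CR it fell by 0.23 ± 0.05 (1.17-fold), with an adjusted p of 0.0046. HFD_CR mice still had 1.43-fold the LFD signal, a difference of 0.51 ± 0.05 with an adjusted p of 1.56e-05. The restricted mice were thus nearer the HFD than the LFD level in this gene. The 95% intervals of the differences were 0.64 to 0.85 for HFD minus LFD, -0.34 to -0.12 for HFD_CR minus HFD and 0.40 to 0.62 for HFD_CR minus LFD. All 3 calls were kept in each of 30 alternative analyses.

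**Figure D1:**
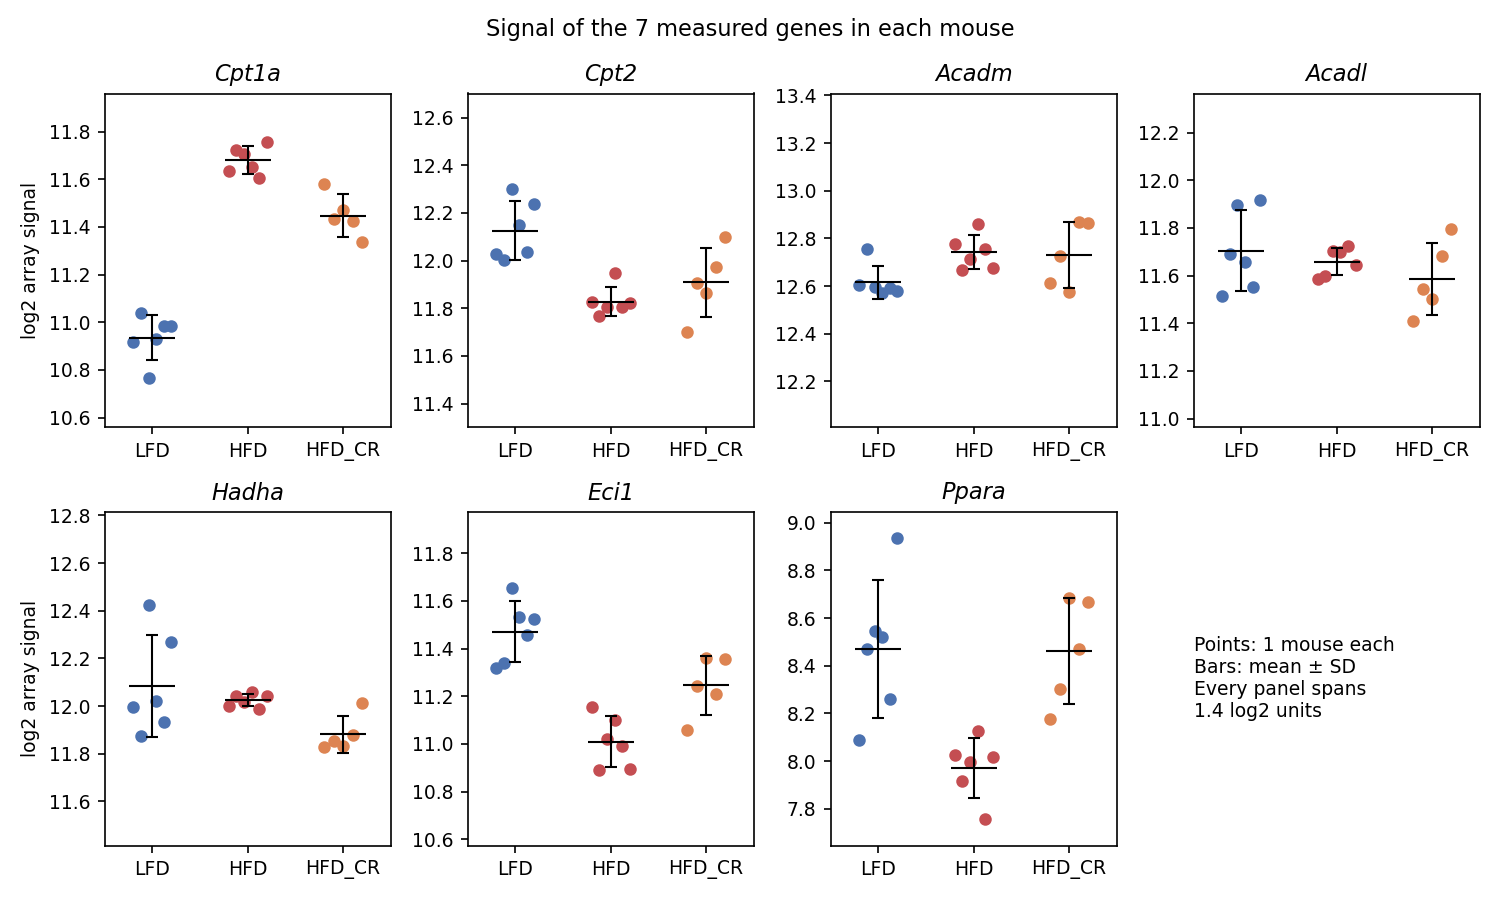
Log2 signal of the 7 measured genes in each mouse, 1 panel per gene with its own vertical axis of equal span, for LFD (6 mice), HFD (6) and HFD_CR (5); points are mice and bars the group means with SD. Cpt1a shows 3 separate bands, with HFD_CR between LFD and HFD, whereas the Acadm, Acadl and Hadha values of the 3 groups overlap.

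Cpt2, the inner-membrane partner of Cpt1a, was on the opposite side. Its lowest, median and highest log2 signals were 12.00, 12.09 and 12.30 in LFD mice and 11.77, 11.81 and 11.95 in HFD mice, 2 ranges that do not overlap. The HFD_CR mice, at 11.70, 11.91, 11.86, 11.97 and 12.10 (mice 1 to 5), spanned from below the HFD range to inside the LFD range. Cpt2 fell by 0.30 ± 0.07 (log2, 1.23-fold, adjusted p = 0.0019) from LFD to HFD. Between HFD_CR and HFD mice it differed by 0.08 ± 0.07 (adjusted p = 0.50), with a 95% interval of -0.06 to 0.22.

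Eci1, the isomerase needed for unsaturated chains, had the smallest p of the 3 members that fell. The lowest, median and highest log2 signals were 11.32, 11.49 and 11.65 in LFD mice and 10.89, 11.01 and 11.15 in HFD mice, again without overlap. HFD_CR mice had 11.06, 11.25, 11.36, 11.21 and 11.36, and only mouse 1 lay within the HFD range. Eci1 fell by 0.46 ± 0.07 (log2, 1.38-fold, limma adjusted p = 4.27e-05) from LFD to HFD and rose by 0.24 ± 0.07 (1.18-fold, adjusted p = 0.0255) from HFD to HFD_CR. The rise in HFD_CR is the least secure call among the members. Its adjusted p was 0.077 without HFD_CR mouse 3, 0.076 without HFD_CR mouse 5, 0.064 without HFD mouse 2, 0.062 without HFD mouse 6 and 0.051 without the 4 arrays highest in muscle or gland genes, at differences of 0.21 to 0.24.

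Ppara, the receptor, had signals nearer the array medians than any other member had, and its replicates spread the most (residual SD 0.22 log2). In LFD mice the lowest, median and highest log2 signals were 8.09, 8.50 and 8.94, and in HFD mice 7.75, 8.01 and 8.13. The HFD_CR mice had 8.18, 8.30, 8.68, 8.47 and 8.67, all above every HFD mouse, while the LFD range reached down into the HFD range. Ppara fell by 0.50 ± 0.12 (log2, 1.41-fold, adjusted p = 0.0036) from LFD to HFD and rose by 0.49 ± 0.12 (1.40-fold, adjusted p = 0.0089) from HFD to HFD_CR. HFD_CR and LFD mice differed by -0.01 ± 0.12 (adjusted p = 0.98), with a 95% interval of -0.27 to 0.25. LFD mouse 6, one of the mice high in thermogenic genes, held the highest Ppara value. Without LFD mice 3 and 6 the HFD minus LFD difference was -0.36 (adjusted p = 0.0202), and the HFD_CR minus LFD difference turned to 0.13 (adjusted p = 0.60).

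Acadl, Acadm and Hadha were not called in any of the 3 comparisons. For Hadha, the log2 signals were 11.87 to 12.42 (median 12.01) in LFD mice, 11.99 to 12.06 (median 12.03) in HFD mice, and 11.83, 11.86, 11.83, 11.88 and 12.02 in HFD_CR mice. The 6 HFD mice were tightly grouped (SD 0.027), and the LFD mice were not (SD 0.21), with LFD mice 3 and 6 at the top. Hadha differed by -0.06 ± 0.08 (adjusted p = 0.63) between HFD and LFD, by -0.14 ± 0.08 (adjusted p = 0.24) between HFD_CR and HFD, and by -0.20 ± 0.08 (adjusted p = 0.13) between HFD_CR and LFD. In a fit without the LFD arrays, or without LFD mice 3 and 6, the same HFD_CR minus HFD difference had an adjusted p of 0.031 or 0.026.

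Acadl, the long-chain dehydrogenase, had log2 signals of 11.51 to 11.92 (median 11.67) in LFD mice and 11.59 to 11.72 (median 11.67) in HFD mice. HFD_CR mice had 11.41, 11.54, 11.50, 11.68 and 11.79. Its differences were -0.05 ± 0.07 for HFD minus LFD (95% interval -0.20 to 0.11), -0.07 ± 0.08 for HFD_CR minus HFD and -0.12 ± 0.08 for HFD_CR minus LFD. The HFD minus LFD sign of both Acadl and Hadha turned on LFD mice 3 and 6: without them the differences were 0.06 and 0.07 (adjusted p = 0.63 and 0.31). For Hadha it also turned without LFD mouse 3 alone, at 0.0086.

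Acadm, the medium-chain dehydrogenase, was the other enzyme besides Cpt1a whose mean was higher in HFD than in LFD mice, but it did not pass the test. Its log2 signals were 12.57 to 12.75 (median 12.59) in LFD mice, 12.67 to 12.86 (median 12.74) in HFD mice, and 12.61, 12.73, 12.58, 12.87 and 12.86 in HFD_CR mice. The differences were 0.13 ± 0.06 (adjusted p = 0.11) for HFD minus LFD, -0.01 ± 0.06 (adjusted p = 0.93) for HFD_CR minus HFD and 0.11 ± 0.06 (adjusted p = 0.28) for HFD_CR minus LFD. The highest LFD value, 12.75, was that of LFD mouse 2, the array with the highest skeletal muscle mean, and the other 5 LFD mice were at 12.60 or lower; the part of muscle RNA in this was not tested.

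**Figure D2:**
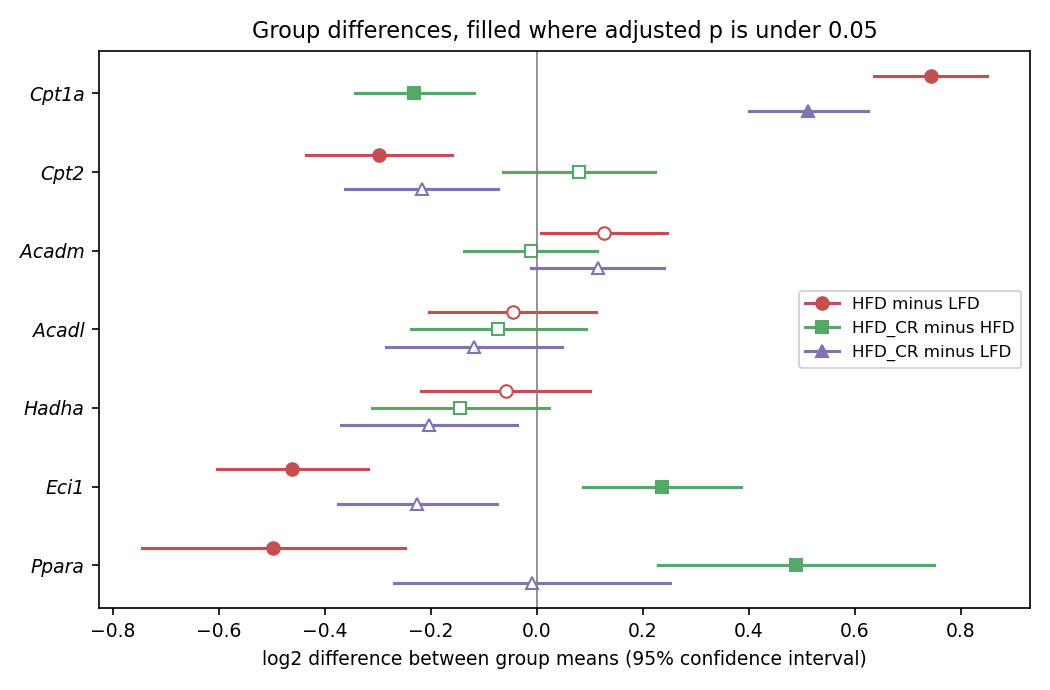
Log2 difference of each of the 7 genes in the 3 comparisons (HFD minus LFD, HFD_CR minus HFD, HFD_CR minus LFD), with 95% intervals from limma; filled points passed an adjusted p under 0.05. Cpt1a is the only gene of the 7 whose HFD minus LFD interval lies to the right of 0 and passed, at 0.74, while Cpt2, Eci1 and Ppara lie to the left.

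After restriction, then, 2 members rose from the HFD level (Eci1 and Ppara), 1 fell (Cpt1a) and 4 did not pass the test. In that comparison 7.69% of all genes rose and 11.3% fell. Among genes above the median level fitted on their own, 15.8% rose and 21.7% fell. Rises were 40.5% of the calls over all genes, and 51.4% with quantile normalization applied again. The members' median difference was -0.01 and their mean 0.05, so the centre of the list had no settled sign. Of the 7, 1 (Cpt1a) was called between HFD_CR and LFD mice, where 5.80% of all genes rose and 3.28% fell. Cpt2 (-0.22 ± 0.07, adjusted p = 0.055) and Eci1 (-0.23 ± 0.07, adjusted p = 0.057) lay just outside the threshold there. Cpt2 passed without HFD_CR mouse 5 (0.0215), LFD mouse 1 (0.0491) or LFD mouse 2 (0.0348), and Eci1 without LFD mouse 1 (0.0347) or LFD mouse 2 (0.0342). Hadha also passed without LFD mouse 2 (0.0499), so that between 1 and 4 members were called depending on the mouse left out. The comparisons share groups, and their values are therefore not independent of each other.

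Set side by side within each mouse, Cpt1a stood apart from the other enzymes, mostly through its own rise. Each gene was taken as its difference from the LFD mean, and the mean over Cpt2, Acadm, Acadl, Hadha and Eci1 was subtracted from Cpt1a. This gap was 0.891 ± 0.095 (log2, SD, n = 6) in HFD mice, ranging from 0.783 to 1.003, and 0.642 ± 0.200 (SD, n = 5) in HFD_CR mice, ranging from 0.375 to 0.923. In LFD mice it is 0 on average by construction and ran from -0.344 to 0.170. Every mouse on the high-fat diet, restricted or not, had a wider gap than any LFD mouse, and the HFD_CR and HFD ranges overlapped. Without LFD mice 3 and 6 the HFD gap was 0.790. The gap was chosen with the members' values known and is given as a description, with no test.

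**Figure D3:**
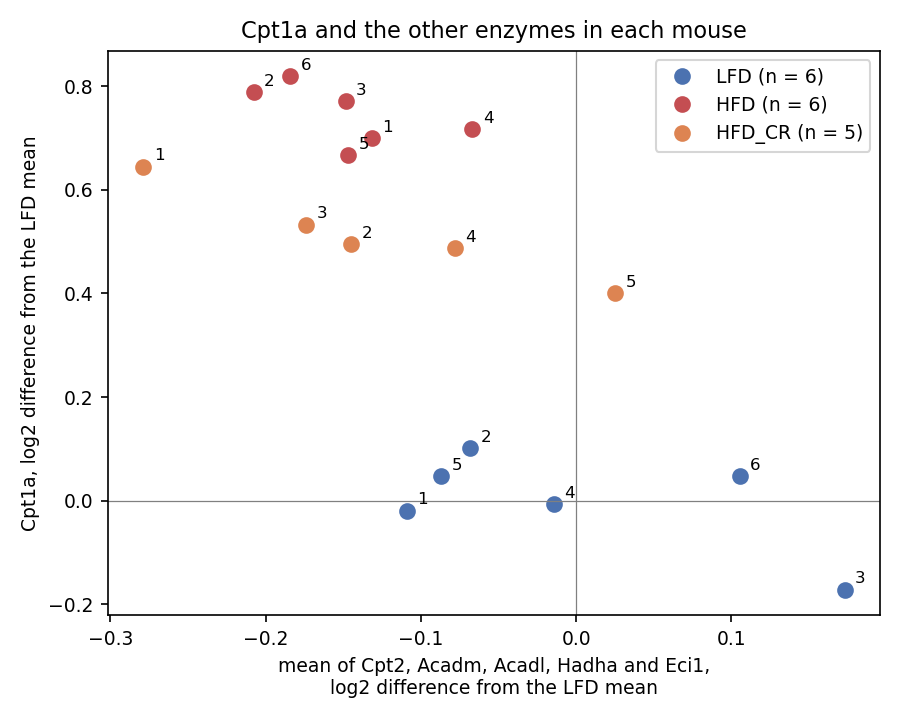
Each mouse's Cpt1a signal (vertical axis) against the mean of Cpt2, Acadm, Acadl, Hadha and Eci1 (horizontal axis), both as log2 differences from the LFD mean. HFD mice lie at 0.667 to 0.819 on the Cpt1a axis, HFD_CR mice at 0.400 to 0.644, and LFD mice around 0; HFD_CR mouse 1 is at the left and HFD_CR mouse 5 at the right of their group.

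Mice within a group also differed. Among HFD_CR mice, mouse 1 had the highest Cpt1a (11.58) and the lowest Cpt2, Acadl, Hadha, Eci1 and Ppara, and mouse 5 had the lowest Cpt1a (11.34) and the highest Cpt2, Acadl and Hadha. Among LFD mice, mouse 3 had the lowest Cpt1a (10.77) and the highest Cpt2, Hadha and Eci1. Cpt1a and the mean of the other enzymes were on opposite sides of the LFD mean in further mice. They were 0.102 and -0.068 in LFD mouse 2, and 0.048 and -0.087 in LFD mouse 5. Not every mouse had this. LFD mouse 6 was above the LFD mean in Cpt1a (by 0.047) and in the other enzymes (by 0.105), and LFD mouse 1 was below it in both (-0.019 and -0.109). LFD mouse 4 was also slightly below the LFD mean in both (-0.0066 and -0.0143). HFD mouse 5 had the lowest Cpt1a (11.60) of the HFD mice together with their lowest Hadha (11.99) and Ppara (7.75). It also had their highest Acadl (11.72), and its mean over the other enzymes (-0.147) was close to the HFD mean (-0.148). These orders are a description of single mice, and the groups are too small for a correlation within them. Markers differed in the same mice: HFD_CR mouse 1 had the highest macrophage mean of its group (11.1) and the germ cell mean of 9.98, and LFD mouse 3 had raised thermogenic, muscle and gland means. The part of those cells in the members' values was not tested.

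The makeup of the tissue by markers differed between diets as well. Of 10 macrophage genes, 9 rose from LFD to HFD and 9 fell from HFD to HFD_CR, and the mean log2 signal of the list was 9.78 to 10.3 in LFD, 11.5 to 11.9 in HFD and 10.4 to 11.1 in HFD_CR mice. Between HFD_CR and LFD mice 5 of these 10 were higher in HFD_CR. Of 9 adipocyte genes, 6 fell and 1 rose from LFD to HFD, and 6 rose from HFD to HFD_CR; the list's mean was 12.8 to 13.0 in LFD, 12.6 to 12.8 in HFD and 12.9 to 13.0 in HFD_CR mice. In bulk tissue, fewer cells of a type and less RNA per cell cannot be told apart. The 3 macrophage ranges are ordered as those of Cpt1a are, and the part of macrophage RNA in the Cpt1a result was not tested. All of these markers had group means above the lowest array median, which is no test of detection: the germ cell gene Odf1 had group means of 13.2 to 13.5 in this tissue.

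**Figure D4:**
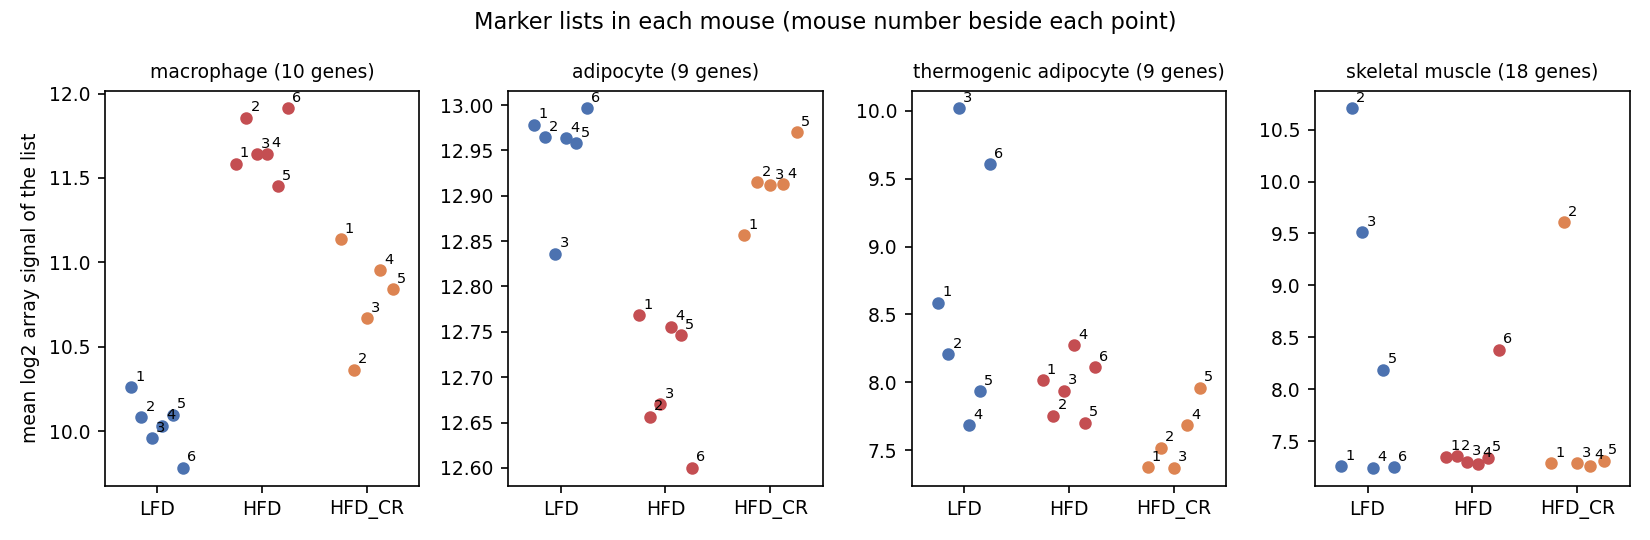
Mean log2 signal per mouse of the macrophage, adipocyte, thermogenic adipocyte and skeletal muscle lists, each on its own axis, for the LFD, HFD and HFD_CR groups; each point is a mouse. The macrophage means of HFD_CR mice (10.4 to 11.1) lie between those of LFD and HFD mice, and LFD mice 3 and 6 stand apart in the thermogenic list at 10.0 and 9.61.

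Many other genes of the pathway fell on the high-fat diet. So did 6 of the 9 adipocyte markers, while 1 rose, and 6 of the 9 rose with restriction. The part of adipocyte RNA in the pathway counts, and in the changes of Cpt2, Eci1 and Ppara, was not tested. Of 64 other measured genes of fatty acid activation, mitochondrial and peroxisomal oxidation, ketone bodies and PPAR signalling, 5 rose and 28 fell from LFD to HFD, with a median of -0.12. From HFD to HFD_CR, 15 rose and 4 fell (median 0.06), and between HFD_CR and LFD 1 was higher and 13 were lower in HFD_CR (median -0.07). As shares of the 64, 7.81% rose and 43.8% fell from LFD to HFD, where 16.5% and 11.3% of all genes did. The shares were 23.4% and 6.25% from HFD to HFD_CR (all genes 7.69% and 11.3%), and 1.56% and 20.3% for HFD_CR minus LFD (all genes 5.80% and 3.28%). Calls were more common among genes above the median level fitted on their own. There 29.9% rose and 18.7% fell from LFD to HFD, and 15.8% rose and 21.7% fell from HFD to HFD_CR. For HFD_CR minus LFD 13.3% were higher and 7.62% lower. The 64 include genes below that level, such as Bdh1. In the short lists that follow, 37.5% to 52.9% of the genes fell and 0% to 25% rose from LFD to HFD. From HFD to HFD_CR, 0% to 41.2% rose and 0% to 25% fell. For HFD_CR minus LFD, 0% to 12.5% were higher and 12.5% to 37.5% lower. A count of 1 or 2 genes in a short list says nothing particular about that list. For the 64 genes, the counts without LFD mice 3 and 6 were 7 and 27, then 17 and 7, then 3 and 7. Without the 4 arrays highest in muscle or gland genes they were 5 and 27, then 12 and 5, and 9 lower for HFD_CR minus LFD. Leaving out HFD_CR mouse 5 gave 8 and 2 for HFD_CR minus HFD, leaving out HFD_CR mouse 4 gave 11 and 2, and leaving out HFD_CR mouse 1 gave 8 lower for HFD_CR minus LFD.

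Fatty acid activation and the carnitine shuttle (10 genes) had 4 that fell from LFD to HFD and 6 that did not pass; their median was 0.03 and their mean -0.18, opposite in sign. Acacb, the acetyl-CoA carboxylase whose malonyl-CoA inhibits carnitine palmitoyltransferase 1, fell by 1.54 ± 0.19 (log2), from 10.83 ± 0.46 (SD, n = 6) to 9.30 ± 0.07 (SD, n = 6). HFD_CR mice were at 9.86 ± 0.43 (SD, n = 5), still 0.97 ± 0.20 below LFD. Mlycd, which degrades malonyl-CoA, also fell (by 0.24 ± 0.08), as did the carnitine acyltransferases Crat (by 0.37 ± 0.05) and Crot (by 0.22 ± 0.06), which act on short and medium chains. The translocase Slc25a20, which carries acylcarnitine between Cpt1a and Cpt2, differed by 0.12 ± 0.08 (adjusted p = 0.31). This list depended on LFD mice 3 and 6: without them 3 rose (Slc25a20, the synthetase Acsl5 and the carnitine transporter Slc22a5) and 3 fell, Mlycd no longer passing. Without LFD mouse 3 alone 2 rose (Acsl5 and Slc25a20) and 4 fell, and without the 4 arrays 1 rose and 2 fell. Mlycd also lost its call without HFD mouse 2. In HFD_CR against HFD mice, 1 of the 10 passed: Acsl4, an acyl-CoA synthetase of arachidonate, fell by 0.26 ± 0.08, a call lost without any one of HFD_CR mice 4 and 5 and HFD mice 1, 2, 3 and 6. In the same comparison Acacb rose without LFD mice 3 and 6, without the 4 arrays, or without HFD_CR mouse 1, LFD mouse 2, LFD mouse 3 or LFD mouse 6, and without LFD mouse 3 or LFD mice 3 and 6 the count was 1 that rose and 3 that fell. Crat (-0.27 ± 0.05) and Acacb were the 2 lower in HFD_CR than in LFD mice.

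Mitochondrial β-oxidation (17 genes beside the members) had 1 that rose, Acad9 (0.17 ± 0.05), a dehydrogenase also needed to assemble respiratory complex I, and 9 that fell from LFD to HFD. Acad11, an acyl-CoA dehydrogenase family member, fell by 0.61 ± 0.06 (adjusted p = 2.81e-07) and Echs1, the short-chain enoyl-CoA hydratase, by 0.55 ± 0.06 (adjusted p = 3.61e-06). Acad10 fell by 0.39 ± 0.08. The very-long-chain and short-chain dehydrogenases Acadvl and Acads fell by 0.38 ± 0.10 and 0.37 ± 0.06, and Hadh, the short-chain hydroxyacyl dehydrogenase, by 0.23 ± 0.04. Hadhb, the beta subunit that partners Hadha in the trifunctional protein, differed by -0.03 ± 0.09 (adjusted p = 0.85). From HFD to HFD_CR, 7 of the 17 rose and 10 did not pass. Those that rose included Acad11 (0.46 ± 0.06), Acad10 (0.28 ± 0.09), Echs1 (0.24 ± 0.07), Hadh (0.14 ± 0.04) and Eci2 (0.13 ± 0.04), a relative of Eci1. Without HFD_CR mouse 5 only 2 of the 17 rose, without HFD mouse 2 or HFD mouse 6 it was 4, and without the 4 arrays 4 rose and 1 fell (Acad9). Acad10, Echs1, Hadh and Eci2 each lost their call without HFD_CR mouse 5, whereas Acad11 kept its call without any one mouse. The call of Acad9 from LFD to HFD was lost without LFD mice 3 and 6. The 9 that fell included Acad12 (-0.30 ± 0.11, limma adjusted p = 0.043). Its call was lost without any one of HFD_CR mice 3 to 5, HFD mice 1, 2, 5 and 6 and LFD mice 1, 2 and 6. Acadvl (-0.33 ± 0.10), Echs1 (-0.31 ± 0.07) and Acads (-0.27 ± 0.06) were the 3 lower in HFD_CR than in LFD mice. The Acadvl call was lost without any one of HFD_CR mice 1 to 4, HFD mice 1 to 6 and LFD mice 3, 4 and 6.

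Peroxisomal oxidation (13 genes) had 1 that rose, Acox3 (0.19 ± 0.05), an acyl-CoA oxidase, and 6 that fell from LFD to HFD. Pex11a, a peroxisome division factor, fell by 0.69 ± 0.10, Phyh, which oxidises phytanate, by 0.57 ± 0.06, and Scp2, a thiolase and sterol carrier, by 0.43 ± 0.07. With restriction 2 rose and 1 fell: Phyh (0.49 ± 0.06), Abcd2, a transporter of fatty acyl-CoA into peroxisomes (0.31 ± 0.06), and Acox3 (-0.22 ± 0.06). Pex11a (-0.58 ± 0.10), Ehhadh, the bifunctional enzyme (-0.44 ± 0.08), and Scp2 (-0.28 ± 0.07) were the 3 lower in HFD_CR than in LFD mice. The Scp2 call in that comparison was lost without HFD_CR mouse 1 or LFD mice 3 and 6, and the Acox3 fall from HFD to HFD_CR without the 4 arrays. From LFD to HFD, 2 rose and 7 fell without LFD mouse 2.

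Ketone body synthesis and use (8 genes) had 2 that rose and 3 that fell from LFD to HFD, with a median of 0.04 and a mean of -0.25. The genes that moved most do not make ketone bodies. Aacs, which turns acetoacetate back into acetoacetyl-CoA for lipid synthesis, fell by 1.57 ± 0.15 (adjusted p = 2.80e-07), from 10.96 ± 0.40 (SD, n = 6) to 9.39 ± 0.18 (SD, n = 6), and HFD_CR mice were at 9.56 ± 0.20 (SD, n = 5). The monocarboxylate transporter Slc16a7 fell by 0.75 ± 0.06 and rose by 0.59 ± 0.06 with restriction. Bdh2, a cytosolic hydroxybutyrate dehydrogenase, rose by 0.34 ± 0.09, and the transporter Slc16a6 by 0.20 ± 0.07. Acat1, the mitochondrial thiolase shared by ketone synthesis and use, fell by 0.34 ± 0.05. Oxct1, which uses ketone bodies, differed by 0.08 ± 0.06 (adjusted p = 0.34). Bdh1, which acts in ketone body synthesis and use, differed by 0.08 ± 0.08 (adjusted p = 0.54). The Bdh1 group means of 6.22 to 6.30 lay below the lowest array median of 7.03. Slc16a1, another monocarboxylate transporter (-0.33 ± 0.08), and Slc16a6 (-0.24 ± 0.07) fell from HFD to HFD_CR. Aacs (-1.40 ± 0.15), Slc16a1 (-0.33 ± 0.08) and Acat1 (-0.20 ± 0.05) were lower and Bdh2 (0.32 ± 0.10) was higher in HFD_CR than in LFD mice. Without the 4 arrays 1 of these 4 passed, and without LFD mice 3 and 6 there were 2. The Bdh2 call was lost without any one of HFD_CR mice 1, 2, 3 and 5, HFD mice 1 to 4 and LFD mice 1, 3 and 4, and that of Acat1 without any one of HFD_CR mice 1, 2 and 4 and LFD mice 1, 3, 4 and 6. The Slc16a6 rise from LFD to HFD was lost without HFD mouse 3 or 6, LFD mouse 3, 5 or 6, or the 4 arrays, and its fall with restriction without HFD_CR mouse 4 or 5.

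Among PPAR receptors, their partners and targets (16 genes), 1 rose and 6 fell from LFD to HFD. Angptl4, a lipoprotein lipase inhibitor and PPAR target, rose by 0.69 ± 0.17 (adjusted p = 0.0052). Its LFD signals had a median of 11.96 and a low value of 10.715 in LFD mouse 3, and no LFD value reached the HFD range. The coactivator Ppargc1a fell by 0.65 ± 0.13, Ucp3, a mitochondrial carrier, by 0.62 ± 0.09, and Acot2, a mitochondrial thioesterase, by 0.61 ± 0.11. With restriction 5 rose and 11 did not pass, with a median of -0.01 and a mean of 0.08. Acot2 rose by 0.54 ± 0.11, Ppargc1a by 0.44 ± 0.14, Pparg, the adipocyte PPAR, by 0.30 ± 0.06, Ucp3 by 0.30 ± 0.10 and Rxra, the partner receptor of PPARs, by 0.23 ± 0.06. Without any one of HFD_CR mice 2 to 5 and HFD mice 2, 5 and 6 the count was 3, since Ppargc1a and Ucp3 then lost their calls. Ppargc1b (-0.38 ± 0.11) and Ucp3 (-0.32 ± 0.10) were the 2 lower in HFD_CR than in LFD mice. Neither passed without HFD_CR mouse 1, HFD_CR mouse 5, LFD mouse 3, or LFD mice 3 and 6, and 1 of them passed without HFD_CR mouse 4, HFD mouse 2 or 6, LFD mouse 1, 4, 5 or 6, or the 4 arrays. Angptl4 did not pass there but was called higher without LFD mouse 1, 2, 3 or 4, or LFD mice 3 and 6. Its difference was 0.35 without LFD mouse 3 and 0.62 without LFD mouse 1. Ppargc1a and Ucp3 are also known from thermogenic fat, and Ucp1, its defining gene, was at 6.71 to 12.6 (median 9.84) in LFD, 6.82 to 9.53 (median 7.83) in HFD and 6.17 to 8.26 (median 6.62) in HFD_CR mice. Ucp1 did not pass from LFD to HFD (-1.90 ± 0.80, limma adjusted p = 0.090). The thermogenic list had a median of -0.86 there. Its genes Otop1 (0.74 ± 0.27, adjusted p = 0.051) and Prdm16 (0.11 ± 0.08, adjusted p = 0.37) had positive differences. Of the 9 thermogenic genes 2 fell from LFD to HFD, 2 fell from HFD to HFD_CR, and in HFD_CR against LFD mice 4 were lower and 1 was higher (median -1.02). Their part in the pathway counts was not tested.

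**Figure D5:**
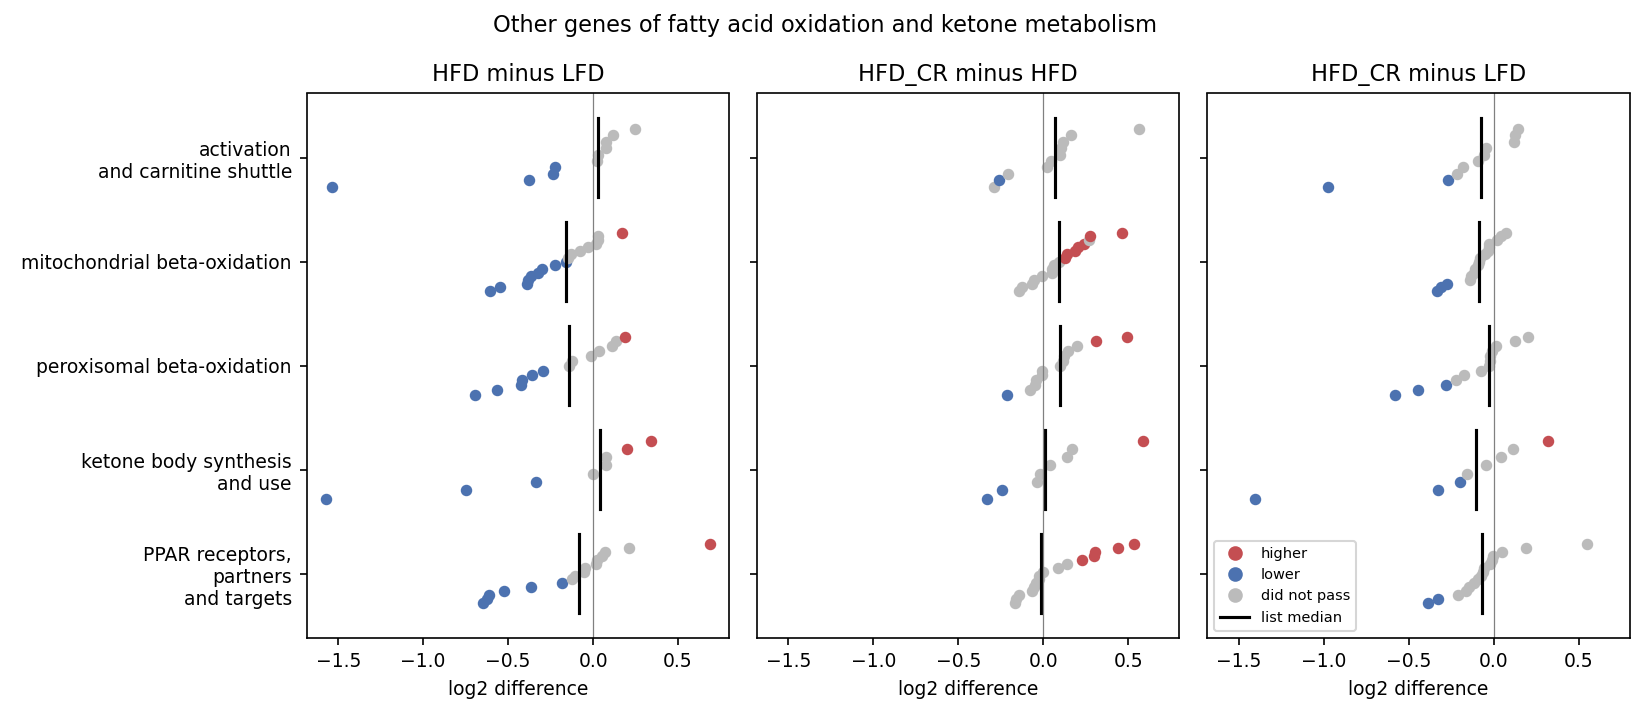
Log2 differences of the 64 pathway genes in the 5 lists (activation and carnitine shuttle, mitochondrial β-oxidation, peroxisomal β-oxidation, ketone bodies, PPAR), for the 3 comparisons; each point is a gene, coloured where its adjusted p is under 0.05, and the bar is the list's median. In HFD minus LFD 28 of the 64 fell and 5 rose, and in HFD_CR minus HFD 15 rose and 4 fell.

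The genes whose signal followed Cpt1a most closely over the 17 mice were found by the root mean square difference of log2 values, each gene centred on its mean and gene models without an assigned name, receptor-segment and small RNA genes left out. Mitf, a basic helix-loop-helix transcription factor, was nearest at 0.085, followed by Septin8, a septin (0.093), Lama2, a laminin chain (0.103), Osmr, the oncostatin M receptor (0.104), and Cmtm3, a MARVEL-domain membrane protein (0.106). Mitf was at 8.81 ± 0.10 in LFD (SD, n = 6), 9.61 ± 0.15 in HFD (SD, n = 6) and 9.28 ± 0.12 in HFD_CR mice (SD, n = 5). Its HFD minus LFD difference was 0.81 ± 0.07 and its HFD_CR minus LFD difference 0.48 ± 0.07. From HFD to HFD_CR Mitf (-0.33 ± 0.07), Lama2 (-0.41 ± 0.08) and Cmtm3 (-0.46 ± 0.05) fell. Septin8 (-0.12 ± 0.06, limma adjusted p = 0.17) and Osmr (-0.22 ± 0.08, adjusted p = 0.053) did not pass there. None of these 5 is one of the 64 pathway genes. They were selected for their likeness to Cpt1a, and their differences are a description.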

How the data were processed

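Total RNA of each mouse was labelled with biotin and hybridised to an Affymetrix Mouse Gene 2.0 ST array, and RNA had an integrity number above 7, per the labels' protocols. The authors deposited log2 expression values per probe set. The tools named per the submitters' processing notes are R 3.5.0, limma and RMA, without their role or order. RMA is a method that removes background, brings arrays to one distribution and combines the probes of a set. The genome build is not given in the sources used here.

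Of 33793 probe sets, 23521 had 1 gene symbol in the array annotation, 1814 several and 8458 none. The probe set with the highest mean over all 17 arrays stood for a gene, which left 22180 genes. No rescaling and no filter on dim genes were applied. In R 4.3.3, lmFit and eBayes of limma 3.58.1 fitted a mean per group (14 residual and 3.63 prior degrees of freedom), with Benjamini-Hochberg adjustment over all genes and a threshold of 0.05. SEs and 95% intervals of differences come from this fit, and the precision is limited by the number of arrays. The script was tested on simulated data. Python 3.11.15 with matplotlib 3.10.9 drew the figures. Upstream sequences were matched by symbol for 7 of 7 measured members.

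The members and lists were chosen with earlier results of these data known. In each list the genes named first were up to 3 that passed with the largest difference in a comparison; any others named were picked after their values were seen. Some genes of the pathway lists are not reported here, and Acsl3 and Cyp4a10 were left out because they share a probe set with other genes. Alternatives left out each mouse or the mice named for high muscle, gland or thermogenic marker means. Others changed the normalization, the filter, the probe set rule, the moderation, the weights, the threshold and the arrays fitted. The rest added the mouse number or the muscle mean to the model.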

Additional observations from a re-analysis of the deposited data

Results flagged for a closer look

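Among 21 sets of values (7 genes in 3 groups), 3 held a mouse whose distance from the nearest other was large for its group by Dixon's criterion, and chance gives about 1 in 20. Hadha was 12.0151 (log2) in HFD_CR mouse 5, against 11.8788 in the next mouse of that group. Acadm was 12.7547 in LFD mouse 2, against 12.6031 in the next, and that mouse also had the highest skeletal muscle mean of all 17. Cpt2 was 11.9458 in HFD mouse 4, against 11.8245 in the next. Leaving out each of these mice changed no direction for Hadha or Cpt2 and no call of the 3 genes other than those given for HFD_CR mouse 5 and LFD mouse 2. For Acadm, leaving out HFD mouse 4 turned the HFD_CR minus HFD difference to 0.012.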

How the results depend on the processing

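Cpt1a kept its direction and its call in all 3 comparisons over 30 alternatives each, with HFD minus LFD differences of 0.70 to 0.76 and adjusted p up to 1.08e-06. Cpt2, Eci1 and Ppara kept theirs for HFD minus LFD, and Ppara for HFD_CR minus HFD. With an adjusted p under 0.01, 2575 genes were called for HFD_CR minus HFD in place of 4213, 967 for HFD_CR minus LFD in place of 2015, 8 of the 64 pathway genes for HFD_CR minus HFD in place of 19, and 6 for HFD_CR minus LFD in place of 14; Eci1 also missed it for HFD_CR minus HFD. Pathway calls for HFD_CR minus LFD were 9 with the arrays of only those groups and 9 without the 4 arrays highest in muscle or gland genes. Members called for HFD_CR minus LFD were 3 with genes above the median level and 3 with trended, robust moderation. Leaving out 1 mouse at a time gave 10 to 23 pathway calls for HFD_CR minus HFD, 8 to 16 for HFD_CR minus LFD, and 1 to 4 members called for HFD_CR minus LFD.

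Signs turned for differences that passed no test. Acadl and Hadha for HFD minus LFD became 0.055 and 0.071 without LFD mice 3 and 6, where the gap of Cpt1a over the other enzymes was 0.790, and Hadha ranged from -0.10 to 0.0086 with 1 mouse left out. Acadm for HFD_CR minus HFD became 0.0041 with arrays centred and 0.036 with array weights, and ranged from -0.047 to 0.027 with 1 mouse left out. Ppara for HFD_CR minus LFD became 0.042 with the replicate block, 0.039 with array weights, 0.048 without the 4 arrays and 0.13 without LFD mice 3 and 6, and ranged from -0.086 to 0.084 with 1 mouse left out. The cause was not tested beyond the mice left out.

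The mouse numbers were not taken as pairs. Same-numbered deviations correlated at -0.11 to 0.41 over genes. In the 3 comparisons 2 of 12, 3 of 10 and 4 of 10 mice correlated best with their own number. The 0.41 was that of LFD and HFD mouse 3, the mice highest in gland genes. Such correlations cannot exclude that numbers were shared for a reason. With the number as a block the calls were 6056 in place of 6165 for HFD minus LFD, 4010 in place of 4213 for HFD_CR minus HFD and 1773 in place of 2015 for HFD_CR minus LFD. Cpt1a for HFD minus LFD had an adjusted p of 1.01e-06 with the block, and no member's call changed.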
